A study of Mus musculus with 6 samples.

Results

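The genes described here are 10 genes of pluripotency and of the early epiblast: Pou5f1, Nanog, Zfp42, Esrrb, Utf1, Nr0b1, Tdh, Lefty1, Lefty2 and Fgf4. They were taken by their symbols from the authors' edgeR table of 15095 genes, and all 10 were found in it. The table compares PolyA RNA between mouse neural progenitor cells (NPCs) of 2 genotypes, wild-type and Setd2-KO, with 3 libraries each, grown from embryonic stem cells (ESCs) and taken at day 8, after 4 days as floating aggregates in medium without leukemia inhibitory factor (LIF) and 4 further days with 5 uM retinoic acid. The ESCs were of the HA36CB1 line, and the knockout removes SETD2, the methyltransferase that places H3K36me3 over transcribed gene bodies; which clone was used for these libraries, and whether each library was differentiated separately, is not stated, so that the p-values may rest on technical spread alone. The sample labels call the cells embryonic stem cells, whereas their titles name NPCs.

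Pluripotency is the capacity of the early epiblast, and of the ESCs derived from it, to form all tissues of the embryo. It is held by a network of transcription factors around Pou5f1 (also called Oct4), Sox2 and Nanog, which bind each other's regulatory elements, and is shaped by secreted signals: Fgf4 drives cells out of the naive state through ERK kinase, and the Nodal pathway acts in the epiblast, where Lefty proteins restrain it. Neural differentiation with retinoic acid silences most of this network, while Sox2 stays on in neural progenitors.

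All fold changes below are log2 fold changes of Setd2-KO over wild-type NPCs, levels are the average log2 CPM (reads of a gene scaled by library size) over all 6 libraries, and false discovery rates (FDR) are Benjamini-Hochberg adjusted over all genes of the table, as edgeR gave them to the authors. The test behind the FDR (glmTreat) asks whether a gene moved by more than 1 on the log2 scale in either direction, and failing it does not show that a gene was unchanged. Values per library were not used here, so no SD stands beside a value and whether the libraries of both genotypes overlap cannot be said. In RNA of a whole culture, fewer cells that express a gene and less RNA of it per cell cannot be told apart. Setd2 itself had a log2 fold change of -0.44 and an FDR of 1 at an average level of 6.88, so its RNA was not lost. Which part of the gene the knockout alters is not stated for this line. For another Setd2 knockout, the paper describes an out-of-frame deletion that leads to a premature stop. Its guides came from the study that the paper cites for the line used here. Of 11 neural progenitor markers, 10 were in the table, with average levels from 3.56 for Fabp7 to 9.82 for Vim, and Sox1 was not found in it.

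Pluripotency genes were present at low levels at day 8, and they did not move as one group. Utf1 and Nr0b1 rose in the Setd2-KO NPCs, by 3.76-fold and 3.53-fold, and Tdh and Lefty2 fell, by log2 fold changes of -1.37 and -1.81. The other 6 genes did not pass the test, among them Pou5f1 and Nanog. Of all 15095 genes, 1.54% were called higher and 2.11% lower at an FDR under 0.05 (3.65% in either direction), against 2 and 2 of these 10. Among the 5629 genes with average levels within the range of these 10, the share called was larger, 6.32%. The median log2 fold change of the 10 genes was 0.32, beside 0.01 over all genes, with 4 of them below and 6 above 0. An absolute log2 fold change over 1 was seen in 6 of the 10, in 8.53% of all genes, and in 15.3% of the genes of that range of levels.

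**Figure D1:**
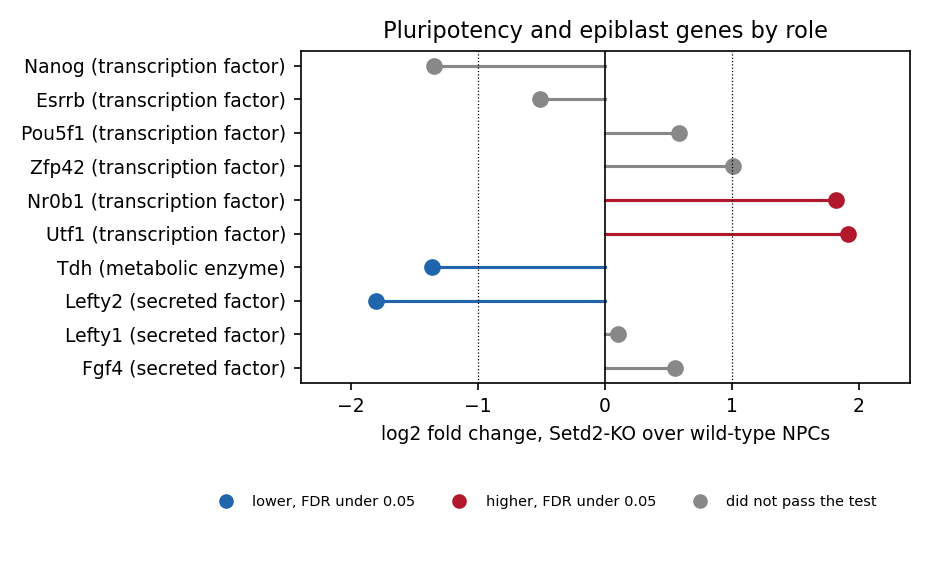
Log2 fold change (x axis, Setd2-KO over wild-type NPCs) of the 10 genes (y axis, ordered by role and fold change); each point is 1 gene from the authors' edgeR table, coloured by its call, and dotted lines mark the log2 fold change of 1 that the test was set against. Utf1 and Nr0b1 lie at 1.91 and 1.82, Lefty2 and Tdh at -1.81 and -1.37, and the other 6 genes did not pass.

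In the order of their levels, Tdh came first, with an average log2 CPM of 3.88, or 14.8 CPM. Esrrb (2.49), Pou5f1 (2.38) and Nr0b1 (2.30) followed closely. Below them lay Zfp42 (1.49), Utf1 (1.11) and Lefty1 (0.41), and the genes under 1 CPM were Nanog (-0.19), Lefty2 (-0.56) and Fgf4 (-1.56). The 10 genes thus ranged from the 3.63rd to the 40.9th percentile of the table by average level, and all lay below its median of 4.57. Which neighbours in this order differ beyond the spread of the libraries cannot be said from averages alone. Per kilobase of the canonical transcript, Tdh remained first (2.97 on the log2 CPM per kilobase scale), followed by Pou5f1 (1.81), Nr0b1 (1.42), Utf1 (0.76), Zfp42 (0.56), Esrrb (0.42), Lefty1 (-0.29), Nanog (-1.36), Lefty2 (-1.89) and Fgf4 (-3.21). On this scale Esrrb, with a transcript of 4206 bases, dropped from rank 2 to rank 6. With the union of all annotated exons as the length, Nr0b1 came first and Tdh was at rank 2, so that the order among the upper genes depends on the transcript assumed, whereas Nanog, Lefty2 and Fgf4 were the last 3 by either length.

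**Figure D2:**
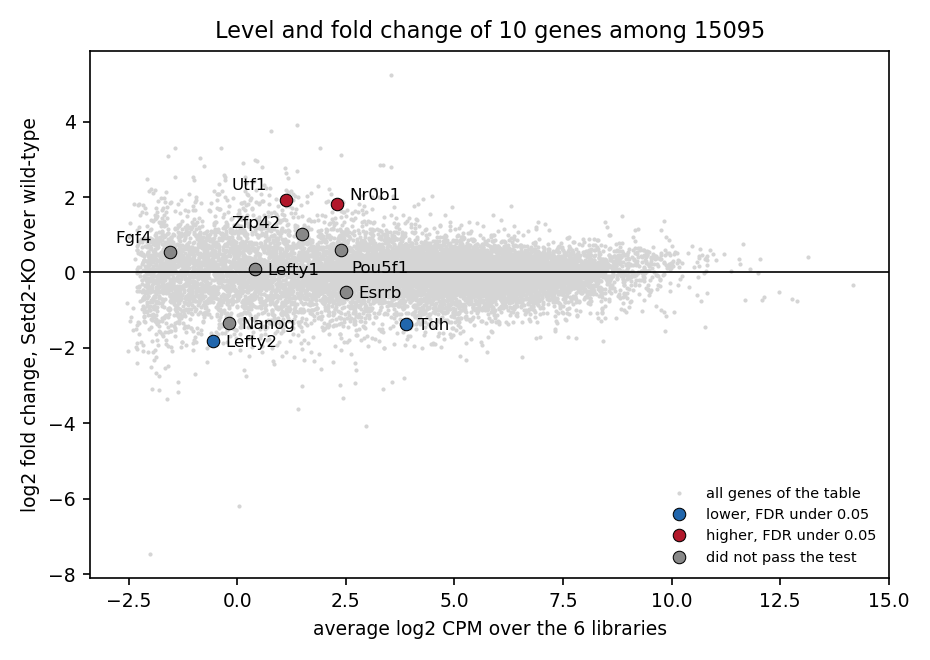
Log2 fold change (y axis, Setd2-KO over wild-type NPCs) against the average log2 CPM over the 6 libraries (x axis) of all 15095 genes of the table (grey) and of the 10 genes (large points, coloured by their call). All 10 lie at average levels of 3.88 or less, where the grey cloud is wide.

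An approximate level in each genotype was worked out from the average CPM and the fold change, taking the average as the mean of both groups of 3 libraries. For the 4 genes that mark pluripotent cells most closely, Pou5f1, Nanog, Zfp42 and Esrrb, these levels summed to 13.9 CPM in wild-type and 15.1 CPM in Setd2-KO NPCs. Over all 10 genes the sums were 40.9 and 36.5 CPM, of which Tdh alone made up 21.3 and 8.26 CPM. The 10 neural progenitor markers summed to 3235.5 CPM in wild-type and 3179 CPM in Setd2-KO NPCs by the same approximation.

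**Figure D3:**
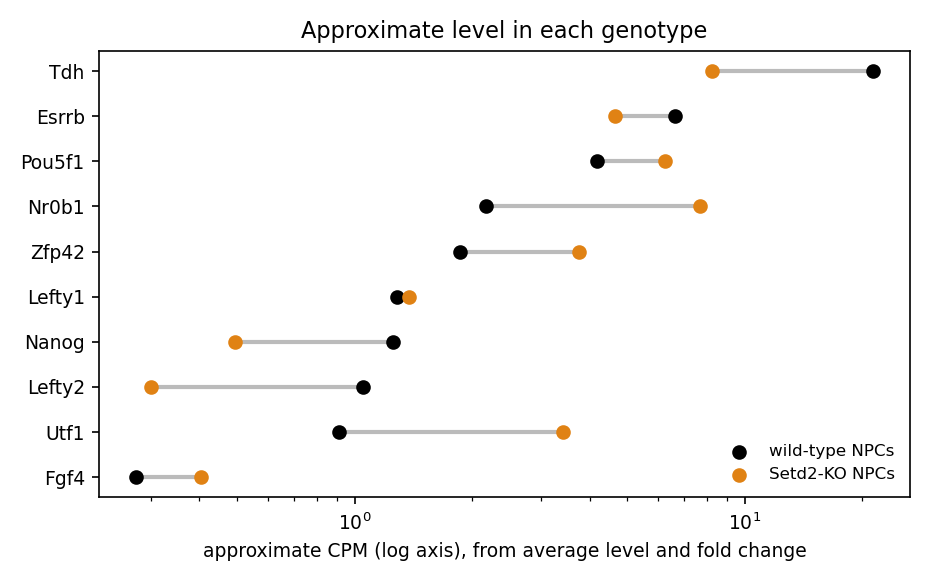
Approximate CPM (x axis, log axis) of each gene (y axis, ordered by the wild-type level) in wild-type (black) and Setd2-KO NPCs (orange), derived from the average level and the fold change of the authors' edgeR table; grey lines join both genotypes and there are no error bars, since values per library were not used. The pairs lie furthest apart for Utf1, Nr0b1 and Lefty2, and those of Lefty1 almost coincide.

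Among the 6 transcription factors, 2 were called higher and 0 lower, beside 1.54% and 2.11% of all genes. Nr0b1 (ENSMUSG00000025056) encodes an orphan nuclear receptor, also called Dax1, that binds Pou5f1 and other factors of the network in ESCs, and lies on chromosome X from 85235338 to 85239554 (GRCm39, 2 exons). It had a log2 fold change of 1.82 and an edgeR FDR of 2.3e-06, with approximate levels of 2.17 CPM in wild-type and 7.66 CPM in Setd2-KO NPCs. Utf1 (ENSMUSG00000047751) encodes a chromatin-associated factor of undifferentiated cells and lies on chromosome 7 from 139523649 to 139525025 (GRCm39, 2 exons). It had the largest fold change of the 10 genes, 1.91 on the log2 scale with an edgeR FDR of 4.0e-05, and its approximate levels were 0.910 and 3.42 CPM. Both genes thus rose from a few CPM or less, and both calls held under each alternative threshold, adjustment and filter that was tried.

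Since Nr0b1 is X-linked, the values of this chromosome are given beside it. Xist, the noncoding RNA that coats an inactive X chromosome, had a log2 fold change of 5.24 with an edgeR FDR of 3.6e-15. Tsix, whose position overlaps that of Xist, had a log2 fold change of 3.11 with an edgeR FDR of 1.6e-11. Of the 536 genes of chromosome X, 2.8% were called higher and 0.933% lower, and their median log2 fold change was 0.08 (also 0.08 without Xist and Tsix), beside 0.01 for the other chromosomes. The part of these differences in the rise of Nr0b1 was not tested.

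The promoters of the genes that rose are shown first, as windows from RefSeq (build GRCm38.p6) that run from 250 bases before to 50 bases after the transcription start. In that of Nr0b1 (chrX:86191525-86191824, plus strand), the capitals mark the nuclear receptor motif AGGTCA at position -126, counted in bases from the start site, and a TATA box TATAAA at -32. In that of Utf1 (chr7:139943606-139943905, plus strand), the capitals mark 4 GC boxes GGGCGG, the motif of Sp and Klf factors, of which 2 overlap.
Nr0b1: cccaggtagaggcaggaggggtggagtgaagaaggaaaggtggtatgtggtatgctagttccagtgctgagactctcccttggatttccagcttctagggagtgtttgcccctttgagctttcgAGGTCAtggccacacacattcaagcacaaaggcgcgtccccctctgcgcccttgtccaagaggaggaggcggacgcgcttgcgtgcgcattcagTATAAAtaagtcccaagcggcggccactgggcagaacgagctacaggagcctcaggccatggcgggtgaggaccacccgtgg
Utf1: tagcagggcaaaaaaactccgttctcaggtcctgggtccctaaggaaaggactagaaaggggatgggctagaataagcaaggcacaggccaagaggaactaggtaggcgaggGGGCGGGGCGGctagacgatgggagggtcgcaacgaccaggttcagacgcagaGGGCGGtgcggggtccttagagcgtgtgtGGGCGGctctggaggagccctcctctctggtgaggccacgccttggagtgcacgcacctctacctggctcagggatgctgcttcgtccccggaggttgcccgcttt

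The remaining transcription factors did not pass the test and did not share a direction. Pou5f1 (ENSMUSG00000024406, chromosome 17 from 35816789 to 35822274, GRCm39) showed a value of 0.58 on the log2 scale with an FDR of 1, and approximate levels of 4.17 CPM in wild-type and 6.24 CPM in Setd2-KO NPCs. Zfp42 (ENSMUSG00000051176, chromosome 8 from 43743871 to 43760152), the zinc finger factor Rex1 that is widely used as a marker of naive ESCs, had a log2 fold change of 1.01, with approximate levels of 1.86 and 3.75 CPM. Its value is as large as the change that the test was set against, and its unadjusted p from edgeR was 0.22. Esrrb (ENSMUSG00000021255, chromosome 12 from 86407887 to 86568409), an orphan nuclear receptor of the naive network, had a log2 fold change of -0.51, from 6.63 to 4.64 CPM. Nanog (ENSMUSG00000012396, chromosome 6 from 122679780 to 122691601), the homeodomain factor that stabilises the naive state, had a log2 fold change of -1.35, from 1.26 to 0.494 CPM. Its unadjusted p from edgeR was 0.014 and its FDR 0.30. Nanog was thus the one gene of the 10 that passed an unadjusted threshold of 0.05 without being called. With called genes included, 5 of the 10 and 5.98% of all genes passed that threshold.

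Both Nanog and Zfp42 carry a binding element of the network in the window before their start site, and their sequences are shown for this reason. In that of Nanog (chr6:122707239-122707538, GRCm38.p6, plus strand), the capitals mark the joined SOX and octamer element, searched as CATTGTN followed at once by ATGCAAA and found on the opposite strand at position -75. In that of Zfp42 (chr8:43306960-43307259, GRCm38.p6, minus strand, written along the gene), they mark an octamer ATGCAAAT on the opposite strand at position -186.
Nanog: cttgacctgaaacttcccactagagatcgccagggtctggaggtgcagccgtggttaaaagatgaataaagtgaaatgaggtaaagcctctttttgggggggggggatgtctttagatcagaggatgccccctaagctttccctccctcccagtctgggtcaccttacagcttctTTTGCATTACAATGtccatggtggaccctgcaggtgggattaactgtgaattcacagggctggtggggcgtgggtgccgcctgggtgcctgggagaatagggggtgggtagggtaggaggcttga
Zfp42: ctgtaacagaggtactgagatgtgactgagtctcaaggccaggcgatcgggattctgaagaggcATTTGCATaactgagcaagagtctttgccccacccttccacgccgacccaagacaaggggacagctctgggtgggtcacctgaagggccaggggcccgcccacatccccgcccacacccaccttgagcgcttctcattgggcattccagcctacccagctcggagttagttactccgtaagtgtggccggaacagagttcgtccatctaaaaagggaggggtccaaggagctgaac

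Windows were found for 7 of the 10 genes; Tdh, Lefty1 and Lefty2 had none. The joined element was found in 2 of the 32851 windows of all genes (0.00609%), and both of these are windows of Nanog, whose 2 listed windows overlap. Only its base N was left free in the search, so joined elements with other letters were not counted, and the small share reflects this strictness. The octamer was found in 1.74% of all windows and for 1 of these 7 genes, and the receptor motif AGGTCA in 16.3% of all windows and for 3 of the 7 (Nanog, Pou5f1 and Nr0b1). The GC box was found in 35.7% of all windows and for 4 of the 7, and the TATA box in 13.6% and for 1. The longer receptor motif TCAAGGTCA, which ends in the shorter one, the element of Esrrb and related receptors, was found in 0.423% of all windows and for 0 of the 7. All motifs were searched on both strands, and a match is a description of the letters only. Nanog, with the joined element, and Zfp42, with the octamer, lay on different sides of 0 in their fold changes.

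Tdh was the one enzyme among the 10 genes and fell. It encodes threonine dehydrogenase, the mitochondrial enzyme that starts the breakdown of threonine to glycine and acetyl-CoA, on which mouse ESCs depend for growth. Tdh (ENSMUSG00000021953, chromosome 14 from 63724585 to 63751098, GRCm39, 9 exons) had a log2 fold change of -1.37 with an edgeR FDR of 2.9e-05, and its approximate level was 21.3 CPM in wild-type and 8.26 CPM in Setd2-KO NPCs. The difference of -13.0 CPM was larger than that of any other of the 10 genes. Of 12 other genes of threonine, glycine and one-carbon metabolism, 0 were called by edgeR in either direction, beside 3.65% of all genes. The count was also 0 at an unadjusted p from edgeR under 0.05, and the median log2 fold change of the 12 genes was 0.32. Gcat, which takes over the product of Tdh, had a log2 fold change of 0.45, and the most abundant enzymes Mat2a and Ahcy had values of 0.20 and 0.68.

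Of the secreted factors, Lefty2 fell and Lefty1 and Fgf4 did not pass the test. Both Lefty genes encode divergent proteins of the TGF-beta family that block Nodal signalling, and both lie on chromosome 1, Lefty2 (ENSMUSG00000066652) from 180720635 to 180726932 and Lefty1 (ENSMUSG00000038793) from 180762587 to 180765971 (GRCm39). Lefty2 had a log2 fold change of -1.81 with an edgeR FDR of 0.011, from an approximate level of 1.05 CPM in wild-type to 0.300 CPM in Setd2-KO NPCs. Lefty1 had a log2 fold change of 0.10 with an FDR of 1, at 1.28 and 1.38 CPM. Whether the change of Lefty2 differed from that of Lefty1 was not tested, since that needs values per library. At an average level of under 1 CPM, the call of Lefty2 was lost at an FDR under 0.01, with the Holm adjustment and with the Benjamini-Yekutieli adjustment (adjusted p = 0.11).

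Since the Lefty genes are related in sequence, the reads that they could share were counted. Their canonical transcripts aligned over 1175 bases with 91.2% identity, yet only 17 windows of the length of a read were found in both transcripts, which is 1.13% of the windows of Lefty1 and 0.712% of those of Lefty2. A larger share lay in noncoding genes annotated on the opposite strand, 10.5% for Lefty1 (Gm39715) and 15.3% for Lefty2 (Gm57186), neither of which was found in the table. For Tdh, 28.8% of the windows were shared, mostly with the opposite-strand genes Gm63171 and Gm17232. The shares were 3.45% for Pou5f1, 2.18% for Esrrb and 1.07% for Zfp42 (with its pseudogene Zfp42-ps1), and 0 windows were shared for Nanog, Utf1, Nr0b1 and Fgf4. The library kit keeps the strand, but no source used here says whether the counting did.

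Fgf4 (ENSMUSG00000050917, chromosome 7 from 144401104 to 144418985 in GRCm39), the ligand that moves ESCs out of the naive state, had the lowest level of the 10 genes. Its log2 fold change was 0.55 with an FDR of 1, at approximate levels of 0.276 CPM in wild-type and 0.403 CPM in Setd2-KO NPCs. Of 22 genes of FGF receptors and the ERK pathway, 0 were called by edgeR in either direction, beside 3.65% of all genes. The count was also 0 at an unadjusted p from edgeR under 0.05. The log2 fold changes of the 22 genes ran from -0.57 to 0.50 with a median of 0.07. The receptor gene Fgfr1, the most abundant of them, had a value of 0.14.

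In the Nodal pathway, which the Lefty proteins restrain, 1 gene was called, the coreceptor gene Tdgf1 (Cripto). Of 16 measured genes, 1 was called lower and 0 higher, beside 2.11% and 1.54% of all genes. The median log2 fold change of the 16 genes was -0.01. Tdgf1 had a log2 fold change of -1.97 with an edgeR FDR of 0.027, at an average log2 CPM of only -1.52. The ligand gene Nodal had a log2 fold change of 0.31 at an average log2 CPM of -0.19 and did not pass. The call of Tdgf1 was lost at an FDR under 0.01, with the Holm and Benjamini-Yekutieli adjustments, and with a filter on average levels below 0 log2 CPM.

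Among other genes of the naive network and of ESCs, 2 were called higher and 0 lower, beside 1.54% and 2.11% of all genes. Of 34 measured genes, Spp1, which encodes the secreted protein osteopontin, had a log2 fold change of 1.48 (edgeR FDR 1.4e-05) and Eras, a Ras-like gene of ESCs on chromosome X, one of 2.09 (edgeR FDR 0.0067). The remaining 32 did not pass. The median log2 fold change of the 34 genes was 0.31, beside 0.01 over all genes. Above 0 lay 24 of the 34, beside 7674 of all 15095 genes. Sox2, which neural progenitors also express, was at an average log2 CPM of 7.49 with a log2 fold change of 0.60. Klf2 (0.32), Klf4 (-0.42) and Tfcp2l1 (0.64), factors of the naive network, did not pass either. Eras had an average log2 CPM of -0.44, close to that of Lefty2 and Nanog. Its call was lost with the Holm and Benjamini-Yekutieli adjustments, and with a filter on average levels below 0 log2 CPM.

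Of 16 measured genes of the formative and primed epiblast and of early gastrulation, 2 were called lower and 0 higher. Of all genes, 2.11% were called lower and 1.54% higher. The 2 called genes of this list were Tdgf1 and Lef1. Lef1, a transcription factor of the Wnt pathway, had a log2 fold change of -1.67 (edgeR FDR 2.5e-06). Lef1 is also expressed outside the epiblast and lies in a part of chromosome 3 where the 45 tested genes within 5 Mb had a median log2 fold change of -0.35. The median of the 16 genes was -0.01, and Fgf5, a common marker of the primed state, had a value of 0.72 that did not pass.

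The LIF receptor and Stat3 pathway sustains naive ESCs, and its ligand was left out of the medium. Of its 9 genes, 0 were called by edgeR, beside 3.65% of all genes (also 0 at an unadjusted p under 0.05). The pathway's median log2 fold change was -0.03. Its most abundant genes, Jak2 and Jak1, had log2 fold changes of -0.03 and -0.00016. The values of the 9 genes ran from -0.93 for the feedback inhibitor gene Socs3 to 0.47 for Pim1, and that of Stat3 itself was -0.68. Of 11 factors known to silence pluripotency genes on differentiation, 0 were called by edgeR, beside 3.65% of all genes. The count was also 0 at an unadjusted p from edgeR under 0.05. Their values ran from -0.44 for Nr2f1, a nuclear receptor gene induced by retinoic acid, to 0.26 for Nr6a1, a repressor of Pou5f1. Chd4, the remodeller of the NuRD complex and the most abundant of them, had a value of -0.20.

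**Figure D4:**
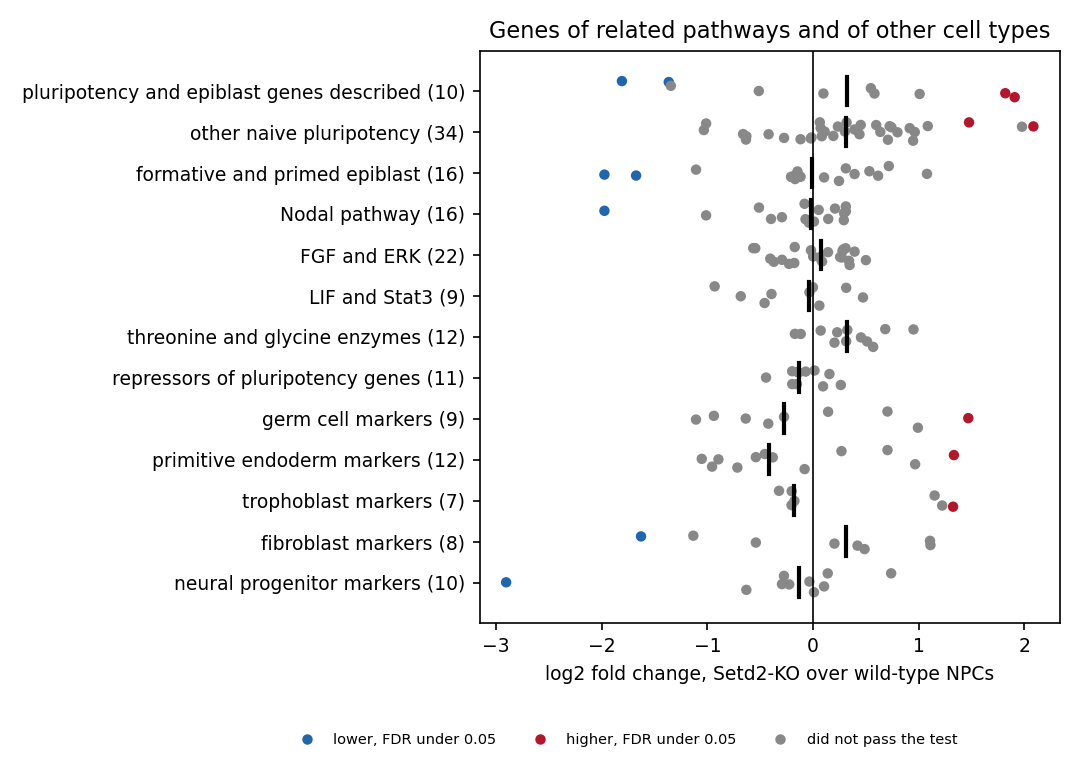
Log2 fold change (x axis, Setd2-KO over wild-type NPCs) of the genes of 13 lists (y axis, with the number of measured genes in parentheses); each point is 1 gene from the authors' edgeR table, coloured by its call and shifted at random along the y axis within its list, and black bars are medians. The 10 genes at the top hold called genes on both sides of 0. Their median of 0.32 lies close to the 0.31 of the other naive pluripotency genes. The medians of the threonine and glycine enzymes (0.32) and of the fibroblast markers (0.31) lie as close.

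Several of the 10 genes are also expressed outside the epiblast, so markers of other cells are given beside them. Each count of called markers below stands beside 1.54% called higher and 2.11% called lower among all genes. In lists this short, 1 call says little about a kind of cell. Of 9 measured markers of primordial germ cells, which express Pou5f1 and Nanog, 1 was called higher and 0 lower, the RNA helicase gene Ddx4 (log2 fold change 1.47, edgeR FDR 0.014), and the approximate levels summed to 70.6 CPM in wild-type and 53.7 CPM in Setd2-KO NPCs. Most of this sum came from Kit (54.1 and 34.8 CPM), and the other 8 markers summed to 16.5 and 19.0 CPM, in the opposite order. The germ cell marker Dppa3 was not found in the table, and Prdm14 was at an average log2 CPM of -1.95. Of 12 markers of primitive and visceral endoderm, 1 was called higher, the transthyretin gene Ttr (1.33), and 0 lower; their levels summed to 1892 and 1005 CPM, most of it from Col4a1 (-1.05) and Lama1 (-0.90), which other cells also express, and to 194 and 161 CPM without these genes. Of 7 measured trophoblast markers, 1 was called higher, Gata3 (1.33), and 0 lower, with sums of 152 and 136 CPM, of which the keratin genes Krt8 and Krt18 made up 146 and 122 CPM. The other 5 trophoblast markers summed to 6.57 CPM in wild-type and 14.3 CPM in Setd2-KO NPCs. Gata3 alone made up 4.18 and 10.5 CPM of these sums. Of the rest, Ascl2 (1.22) and Cdx2 (1.15) lay above 0, Hand1 (-0.20) and Eomes (-0.18) lay below, and none passed. Feeder cells would carry fibroblast markers, but the paper's methods state that the lines were differentiated without feeder cells. Of 8 measured fibroblast markers, 0 were called higher and 1 lower, Col1a2 (-1.63), with sums of 79.6 and 60.0 CPM. The other 7 fibroblast markers summed to 34.7 and 45.5 CPM. These sums without the leading genes were added after the data were seen. Of the 10 neural progenitor markers, 0 were called higher and 1 lower, Fabp7 (-2.91). The part of these cells in the changes of Utf1, Nr0b1, Tdh and Lefty2 was not tested.

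The genes next to the 10 genes on their chromosomes were called in 1 case. The 2 nearest tested genes on each side made up 37 other genes, with a median log2 fold change of 0.13. Of them, 1 was called higher and 0 lower, beside 1.54% and 2.11% of all genes. The one called was Ano1 (log2 fold change 1.21, edgeR FDR 0.030), 95.4 kb from Fgf4. Between them lies Fgf3, another ligand gene, with a value of 1.34 and an FDR of 0.089, and Fgf15 on the other side of Fgf4 had a value of 0.68. Around Nanog, in a region that holds several genes of the epiblast, Gdf3 had a value of -1.01 and the glucose transporter gene Slc2a3 one of 0.74, and neither passed. Beside Lefty2, the values of Sde2 (0.27) and H3f3a (0.46) both lay above 0. Tcf19, 1.35 kb from Pou5f1, had a value of 0.52, near the 0.58 of Pou5f1. The lowest values among the 37 genes were those of Il1rapl1 (-2.07) beside Nr0b1 and Adgra1 (-1.48) beside Utf1, and neither passed. Both were at low average levels, -2.17 log2 CPM for Il1rapl1 and -1.06 for Adgra1. They lie 545 kb from Nr0b1 and 65.6 kb from Utf1. The medians of all tested genes within 5 Mb ranged from -0.07 around Pou5f1 to 0.13 around Nr0b1, where only 4 genes were tested.

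**Figure D5:**
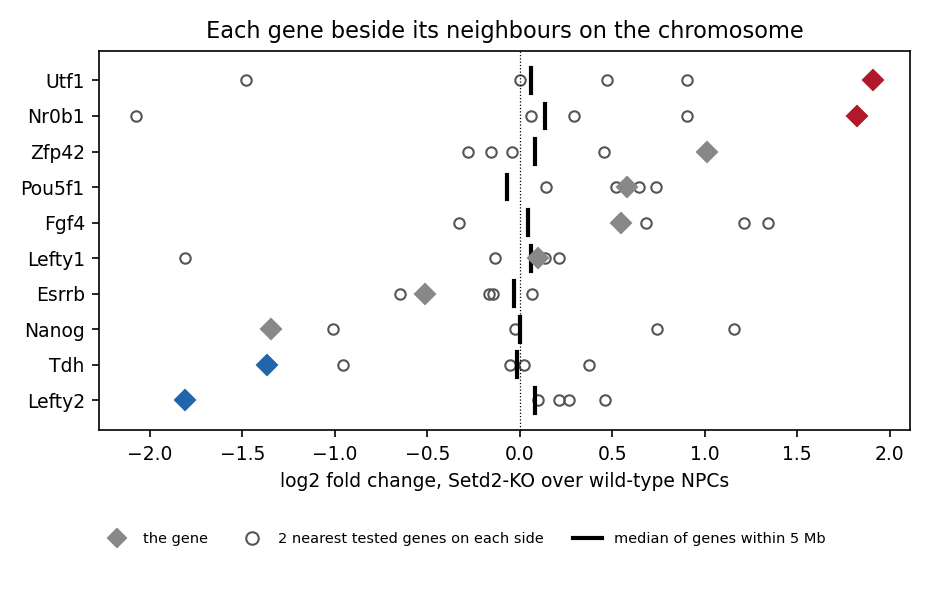
Log2 fold change (x axis, Setd2-KO over wild-type NPCs) of each of the 10 genes (diamonds, coloured by their call), of the 2 nearest tested genes on each side (open circles) and the median of the tested genes within 5 Mb (black bars), by gene (y axis). The black bars lie between -0.07 and 0.13 for all 10 genes. The diamonds of the called genes Utf1, Nr0b1, Tdh and Lefty2 lie apart from them. So do those of Nanog (-1.35), Zfp42 (1.01), Pou5f1 (0.58), Fgf4 (0.55) and Esrrb (-0.51), which were not called. Only the diamond of Lefty1 (0.10) lies near its bar (0.06).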

How the data were processed

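The authors compared PolyA RNA of day 8 NPCs (3 libraries per genotype) with edgeR. The deposited table holds log2 fold changes (shrunken and not), the average log2 CPM of all 6 libraries, and a p-value and FDR from glmTreat with a threshold of 1 on the log2 scale. Each is the authors' own comparison or average and was copied, not refitted. Builds NCBIM37 and mm9, with Trim Galore, STAR and edgeR, stand in the submitters' processing notes, whereas the paper's methods name GRCm39, Salmon, filterByExpr and TMM. Since only averages were used, the depth per library is unknown, and precision is lowest for low genes.

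Fold changes were multiplied by -1 to read Setd2-KO over wild type, since 518 of 523 genes then had the direction that the sheets of Dataset EV1 name (5 did not). Recomputing the Benjamini-Hochberg adjustment over 15095 genes gave the deposited FDR. Gene IDs were matched without version to GENCODE vM39 (GRCm39), where 15066 were found. Approximate CPM per genotype were 2C/(1+F) and 2CF/(1+F), with C the average CPM and F the fold change. Motifs were searched in RefSeq promoters and windows of read length in GENCODE transcripts of other genes, on both strands. The 10 genes and 12 lists (177 entries, 166 found in the table) were chosen with earlier results of these data known. The rule named the 10 genes, Setd2, up to 4 called genes of each list (otherwise its 2 most abundant) and called neighbours, of which some are not reported here by name; other genes named, the motifs and the 5 Mb windows were chosen after their values were seen. The adjustment, motif and window steps were tested on simulated data. Python 3.11.15 with numpy 2.4.6, pandas 2.3.3, scipy 1.17.1 and Biopython 1.88 was used.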

Additional observations from a re-analysis of the deposited data

How the results depend on the processing

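Of the 10 genes, 2 were called higher under every alternative tried: an FDR under 0.01 or 0.1, Holm and Benjamini-Yekutieli adjustment, a filter that keeps average levels of 0 log2 CPM or more, and only protein-coding genes. The number called lower was 2 in the authors' comparison, 1 at an FDR under 0.01, 1 with Holm adjustment, 1 with Benjamini-Yekutieli adjustment and 1 with the filter on the average log2 CPM, which removes Lefty2 by its construction. No fold change of the 10 genes turned its direction without shrinkage. Over all genes 551 were called, against 272 with Holm adjustment. Of the other naive genes, 2 were called higher, against 4 at an FDR under 0.1 and 1 with Holm or Benjamini-Yekutieli adjustment or the filter. Ddx4, Ttr and Gata3, each the one called marker of its list, were lost with Holm adjustment, Ddx4 and Ttr also with Benjamini-Yekutieli adjustment, and Ddx4 also at an FDR under 0.01. No paired analysis was possible because the table holds no values per library, and leaving out each replicate was not run for the same reason. Depth limits the values of Nanog, Lefty2 and Fgf4 most, which lie under 1 CPM.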
